A study of Mus musculus with 21 samples.

Results

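The insulin-like growth factor (IGF) system was followed through 7 groups of mouse embryonic tissue from the second and the third pharyngeal arch and the growing outer ear. Its 10 genes were taken by symbol from both deposited count tables, out of 24594 genes listed in each: 2 ligands (Igf1 and Igf2), 2 receptors (Igf1r and Igf2r) and 6 binding proteins (Igfbp2 to Igfbp7). IGF1 and IGF2 are secreted growth factors that promote proliferation and growth through the tyrosine kinase receptor encoded by Igf1r. The product of Igf2r, the cation-independent mannose 6-phosphate receptor, takes IGF2 up for lysosomal degradation and so lowers the amount left to signal. The secreted binding proteins hold the ligands outside the cell, extend their life or keep them from the receptor, and proteases that cut the binding proteins release the ligands again. Igf2 is an imprinted gene expressed mainly from the paternal allele in most embryonic tissues, while Igf2r is expressed mainly from the maternal allele in the mouse, and loss of Igf1, Igf2 or Igf1r is known to give small embryos.

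The study examined how a distant super-enhancer region named HIRE1 controls Hoxa genes in the cranial neural crest, a population that leaves the embryonic neural tube and builds most of the face and ear skeleton. Bulk RNA-seq of 21 libraries was available, 3 independent biological replicates in each group, with embryos of both sexes pooled and all mice kept on a mixed C57Bl/6J and CD1 background. In the stage series of 9 libraries, red fluorescent cells of Wnt1::Cre;ROSA-RFP embryos were sorted from PA2, the second arch, of E10.5 embryos (sorted E10.5 PA2) and from the forming pinna, the outer ear, at E12.5 and E14.5, so the sort selected cells descended from Wnt1 promoter-driven Cre expression, and its purity was not measured here. In the genotype series of 12 libraries, PA2 and PA3, the third arch, were dissected at E10.5 from WT embryos and from embryos homozygous for a HIRE1 deletion made with CRISPR-Cas9 on C57Bl/6J (HIRE1del/del, written HIRE1del here), and no sorting is stated for them. E14.5 tissue was dissociated with papain and E10.5 and E12.5 tissue with trypsin, so age and enzyme cannot be told apart in any comparison with E14.5. PA2 was taken at E10.5 and the forming pinna later, so age and dissected region cannot be told apart in stage comparisons with E10.5.

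Total counts per library were between 25.8 and 49.1 M in the stage series and between 25.8 and 32.2 M in the genotype series, and the E14.5 pinna libraries, at 47.5 to 49.1 M, were the deepest. The series were read single-end and paired-end, respectively, and were normalized apart, so values of both are set side by side without a test between them. Levels are given as CPM, the usual per-library scaling of counts by sequencing depth, after correction for library composition. In bulk RNA, fewer cells of a type and less RNA per cell cannot be told apart. The labels call all 21 samples cranial neural crest cells, and between 6 and 8 of 8 neural crest mesenchyme markers reached 1 CPM in every group. The summed level of 7 erythroid genes was at most 12 CPM in the stage libraries but 1581 to 3405 CPM in the PA2 and 12818 to 25232 CPM in the PA3 libraries of the genotype series, and 8 of 8 epithelial markers reached 1 CPM in PA2 of both genotypes, against 2 in sorted E10.5 PA2.

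All 10 genes are protein coding. On GRCm38, Igfbp2 (chr1:72824503-72852474, plus strand) and Igfbp5 (chr1:72857932-72874884, minus strand) are neighbours that point towards each other across 5457 bases. Igfbp3 (chr11:7206086-7213923, minus strand) and Igfbp4 (chr11:99041244-99054392, plus strand) share a chromosome but not a neighbourhood. Igf2 (chr7:142650766-142666816, minus strand) stands on the same strand as H19 (chr7:142575529-142578143, minus strand), the imprinted noncoding RNA gene 72622 bases away. Igf1r (chr7:67952827-68233668, plus strand) is far off on that chromosome. Igf1 (chr10:87858265-87937042, plus strand), Igf2r (chr17:12682406-12769664, minus strand), Igfbp6 (chr15:102144362-102149511, plus strand) and Igfbp7 (chr5:77349240-77408041, minus strand) complete the set.

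The promoters of 4 of the binding proteins are shown. Igfbp3, Igfbp5 and Igfbp7 rose steeply during pinna growth, while Igfbp4, the most abundant in sorted E10.5 PA2, changed little. Igfbp6 rose steeply as well, from 0.0672 CPM in sorted E10.5 PA2 to 2.56 CPM in the E14.5 pinna, but its window is not printed. Each run is the 180 bases from 150 before to 30 after a RefSeq transcription start (GRCm38.p6), 5′ to 3′ on the gene's strand. Capitals mark matches to 6 short motifs searched on both strands: the TATA box as TATAAA, its form spelled TATATA and a further form spelled TTTAAA, the CCAAT box, the GC box spelled GGGCGG, and the core bound by Meis-type Hox cofactors, spelled TGACAG. The windows are chr11:7213894-7214073 (minus strand), chr1:72874836-72875015 (minus strand), chr5:77408016-77408195 (minus strand) and chr11:99041094-99041273 (plus strand), in that order.
Igfbp3: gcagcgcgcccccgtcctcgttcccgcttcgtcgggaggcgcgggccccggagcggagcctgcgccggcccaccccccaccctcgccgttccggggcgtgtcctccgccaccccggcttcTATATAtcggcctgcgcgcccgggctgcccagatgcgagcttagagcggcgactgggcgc
Igfbp5: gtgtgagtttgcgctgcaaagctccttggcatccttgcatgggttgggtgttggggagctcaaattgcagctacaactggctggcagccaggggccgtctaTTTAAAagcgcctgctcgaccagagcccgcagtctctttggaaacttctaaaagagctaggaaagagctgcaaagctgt
Igfbp7: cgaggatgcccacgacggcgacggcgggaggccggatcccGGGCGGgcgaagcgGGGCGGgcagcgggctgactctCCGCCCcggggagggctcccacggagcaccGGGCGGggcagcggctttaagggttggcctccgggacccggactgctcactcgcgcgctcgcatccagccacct
Igfbp4: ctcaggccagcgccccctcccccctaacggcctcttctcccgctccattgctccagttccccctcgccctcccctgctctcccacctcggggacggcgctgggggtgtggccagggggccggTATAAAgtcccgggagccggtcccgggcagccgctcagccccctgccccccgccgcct
Igfbp3 held 1 TATATA, Igfbp5 1 TTTAAA, Igfbp4 1 TATAAA and Igfbp7 4 GC boxes, 3 as GGGCGG and 1 on the opposite strand. The window of Igfbp6 held 2 CCAAT boxes and 1 TATAAA. That match lay on the opposite strand near the 5′ end of the window, unlike the one of Igfbp4. Among all 32851 RefSeq promoter windows of that length, 3.28% held TATATA, 7.51% TTTAAA, 8.37% TATAAA, 31.0% GGGCGG, 27.0% CCAAT and 11.8% TGACAG. No window of the 14 listed for the 10 genes held TGACAG, which says only that these letters are not in these windows. The matches were not tested as binding sites.

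Within a group, levels of different genes were compared per length, as CPM per kilobase of exon. In sorted E10.5 PA2 the order was led by Igfbp4 at 153 ± 3.20 (SD, n = 3 in every group), followed by Igf2 at 110.4 ± 7.34 and Igf2r at 60.5 ± 2.28. In the E12.5 pinna Igfbp4 at 151 ± 6.06 still led, with Igfbp5 next at 138 ± 9.52. In the E14.5 pinna Igfbp3 led at 707 ± 48.2, then Igfbp5 at 369.7 ± 20.2 and Igfbp4 at 175 ± 7.44. The leading gene thus changed from Igfbp4 to Igfbp3, and the libraries of each of these neighbours in the order did not overlap.

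In PA2 WT the first places were taken by Igfbp4 at 107 ± 6.63 CPM per kilobase and Igf2 at 97.3 ± 5.40, whose libraries overlapped, ahead of Igfbp5 at 79.4 ± 1.17 and Igfbp2 at 77.6 ± 6.74, which also overlapped. In HIRE1del PA2 Igfbp4 at 108 ± 5.91, Igf2 at 96.0 ± 9.77 and Igfbp2 at 85.5 ± 5.27 overlapped from one to the next, and Igfbp5 at 57.4 ± 2.73 lay below them. In PA3 WT Igfbp5 led at 220.5 ± 9.74, ahead of Igf2 at 147 ± 8.98 without overlap. In HIRE1del PA3 it led at 169 ± 9.92, again ahead of Igf2 at 141 ± 8.13. The place of Igf2 depends on the length used, 6865 exon bases here against 4722 for its longest transcript, while Igfbp5 has 6006 by both. Taken per longest transcript, the mean of Igf2 passed that of Igfbp5 in HIRE1del PA3 and that of Igfbp4 in PA2 of both genotypes. In PA3 WT Igf2 and Igfbp5 then overlapped. The order of Igfbp5 and Igfbp2 in PA2 WT also depended on the length. Per longest transcript Igfbp2 stood above Igfbp5 there without overlap, at 109.7 ± 9.52 against 79.4 ± 1.17. At the low end, Igf1 lay between 2.78 ± 0.185 (PA3 WT) and 11.0 ± 0.970 (E12.5 pinna). Igfbp6 and Igfbp7 were the lowest in all groups but the E14.5 pinna, where Igfbp7 at 10.7 ± 4.15 passed Igf1 at 4.07 ± 1.01.

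**Figure D1:**
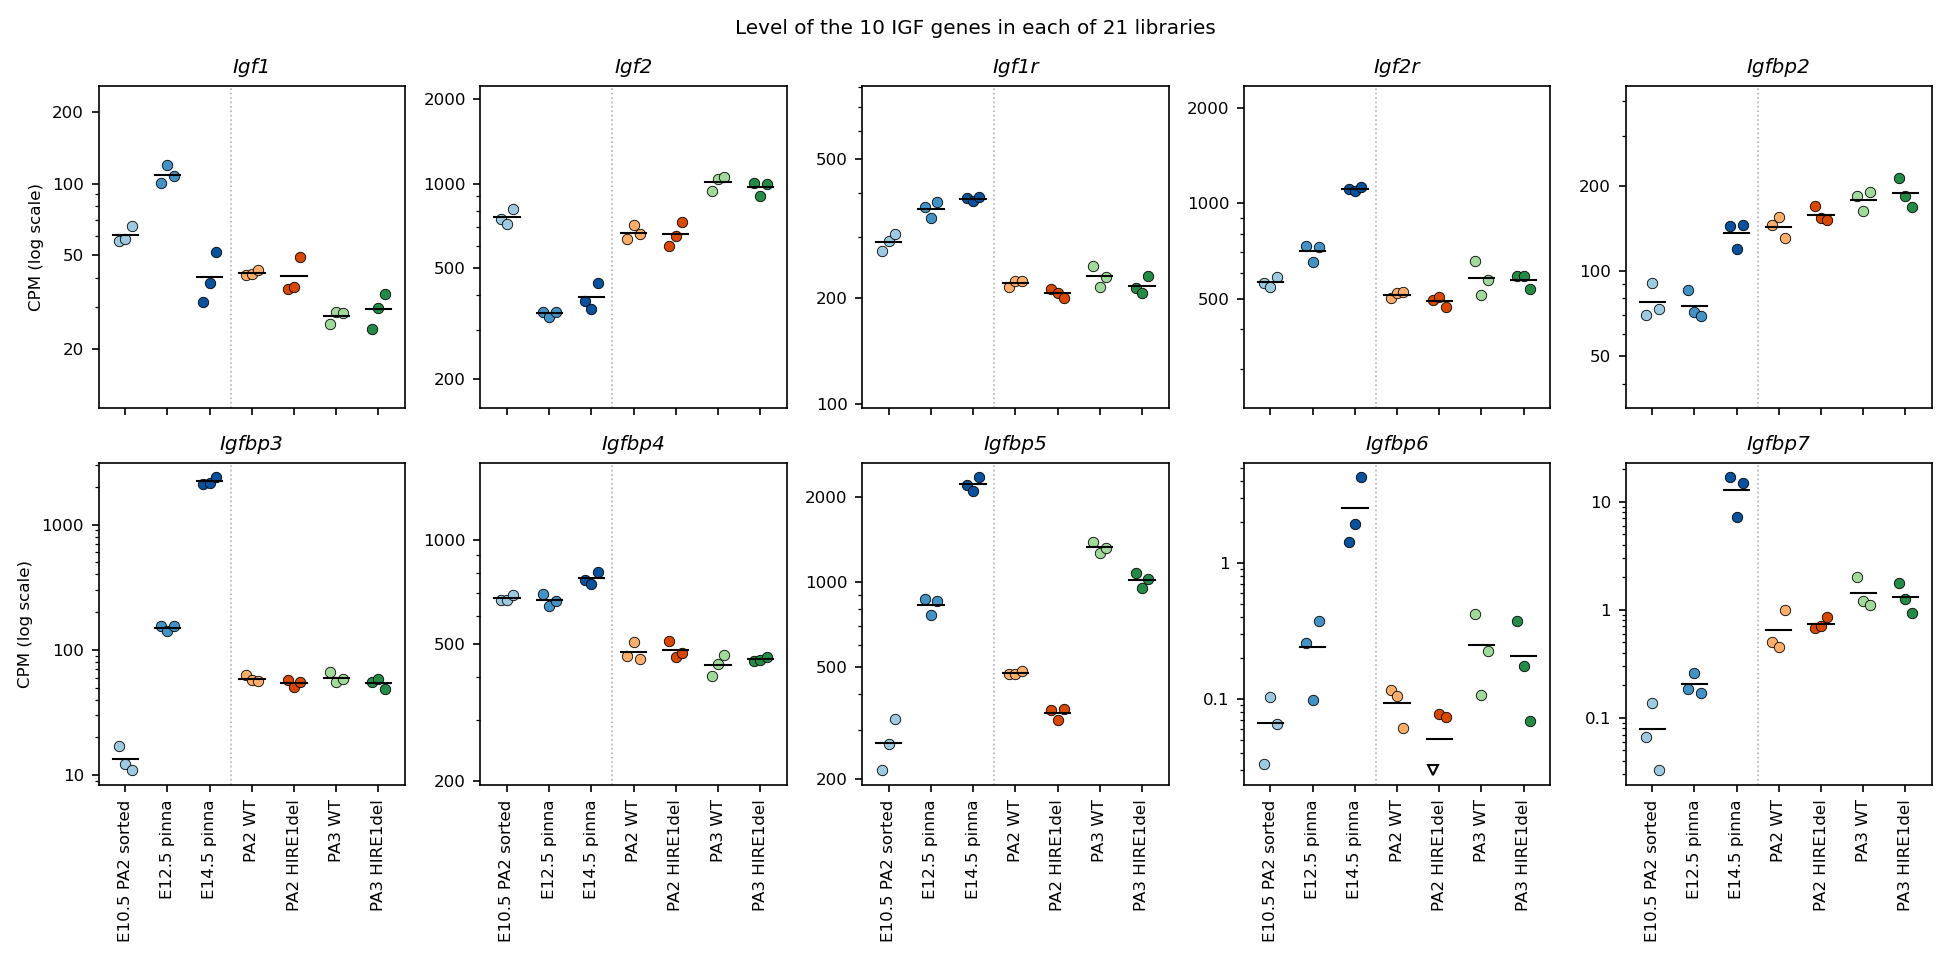
Level of each IGF gene in CPM (log scale) in each of the 21 libraries: points are libraries, black lines group means, and the open triangle marks a library with 0 counts of Igfbp6. The dotted line separates the stage series (left) from the genotype series (right), which were normalized apart. Igfbp3 climbs from 10.9 to 17.1 CPM in sorted E10.5 PA2 to 2118 to 2386 CPM in the E14.5 pinna, and Igfbp5 is lower in HIRE1del than in WT in both arches.

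The stage series asked which genes changed in neural crest-derived cells between PA2 at E10.5, the pinna at E12.5 and the pinna at E14.5. Between E10.5 and E12.5 Igf2 fell while Igf1, both receptors, Igfbp3 and Igfbp5 rose. Between E12.5 and E14.5 Igf1 fell, and all 6 binding proteins and Igf2r rose. Over the whole interval both ligands ended lower, and both receptors and all 6 binding proteins ended higher. The test was edgeR's quasi-likelihood test with Benjamini-Hochberg adjustment over 13438 genes. Genes with an adjusted p under 0.05 are termed called. At the first step 6 of the 10 genes were called, against 68.8% of all genes tested, 5 of them higher (background 35.0%) and 1 lower (33.7%). At the second step 8 of 10 were called, against 65.7%, 7 higher (32.6%) and 1 lower (33.1%). For E14.5 against E10.5 all 10 were called, against 82.0% of all genes, 8 higher (42.0%) and 2 lower (40.0%). Most genes changed with stage, and the counts of called IGF genes are to be read against these shares. The median log2 fold change of the 10 genes was 0.58, 0.75 and 0.89 in the 3 comparisons, beside 0.01, -0.01 and 0.02 over all genes tested. Scaling by library totals alone moved the median of all genes at the second step to -0.13 and the share of called genes that were higher from 49.7% to 38.5%. Under it no called IGF gene turned direction, while 3 uncalled stage values did, Igf1r at the second step (from 0.09 to -0.03) and Igfbp2 and Igfbp4 at the first (from -0.05 and -0.02 to 0.01 and 0.04).

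Igf2 measured 745, 715 and 813 CPM in the sorted E10.5 PA2 libraries and 348, 333 and 348 CPM in the E12.5 pinna. All E12.5 libraries lay far below the E10.5 libraries, and Igf2 fell (-1.14, SE 0.08, adjusted p = 3.0e-07; values in such brackets open with the log2 fold change). At E14.5 Igf2 measured 379, 357 and 439 CPM, above the E12.5 libraries and without overlap. That second difference did not pass the threshold (0.19, SE 0.08, adjusted p = 0.0505), although 5 of 15 settings called it, among them DESeq2's test (adjusted p = 0.0279), with adjusted p from 0.0148 to 0.452 over all settings.

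Igf1 measured 57.5, 58.2 and 66.3 CPM in sorted E10.5 PA2, 100.1, 119 and 108 CPM in the E12.5 pinna and 31.6, 38.0 and 51.3 CPM at E14.5. It was therefore highest at E12.5, where no library overlapped another stage. Igf1 rose at the first step (0.84, SE 0.15, adjusted p = 0.000325) and fell at the second (-1.44, SE 0.15, adjusted p = 7.2e-06). The ratio of Igf2 to Igf1 per length went from 18.0 ± 0.582 at E10.5 to 4.57 ± 0.502 at E12.5 and 14.4 ± 2.59 at E14.5 (SD, n = 3).

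Both receptors rose at the first step. Igf1r, the signalling receptor, measured 272, 292 and 305 CPM at E10.5, 364, 339 and 376 CPM at E12.5 and 386, 378 and 389 CPM at E14.5. It rose at the first step (0.31, SE 0.06, adjusted p = 0.000739) and was not called at the second (0.09, SE 0.06, adjusted p = 0.187). Igf2r, the clearance receptor, measured 561, 543 and 585 CPM at E10.5, 733, 653 and 729 CPM at E12.5 and 1107, 1089 and 1123 CPM at E14.5. No library of one stage overlapped the next, and Igf2r rose at the first step (0.32, SE 0.06, adjusted p = 0.00053) and again at the second (0.65, SE 0.06, adjusted p = 3.2e-06). Per length, Igf2r stood 2.60 ± 0.137 times as high as Igf1r at E10.5 and 3.84 ± 0.00856 times at E14.5. Set against the receptor that clears it, Igf2 was 1.82 ± 0.0530 times Igf2r per length at E10.5, 0.660 ± 0.0262 times at E12.5 and 0.480 ± 0.0449 times at E14.5.

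**Figure D2:**
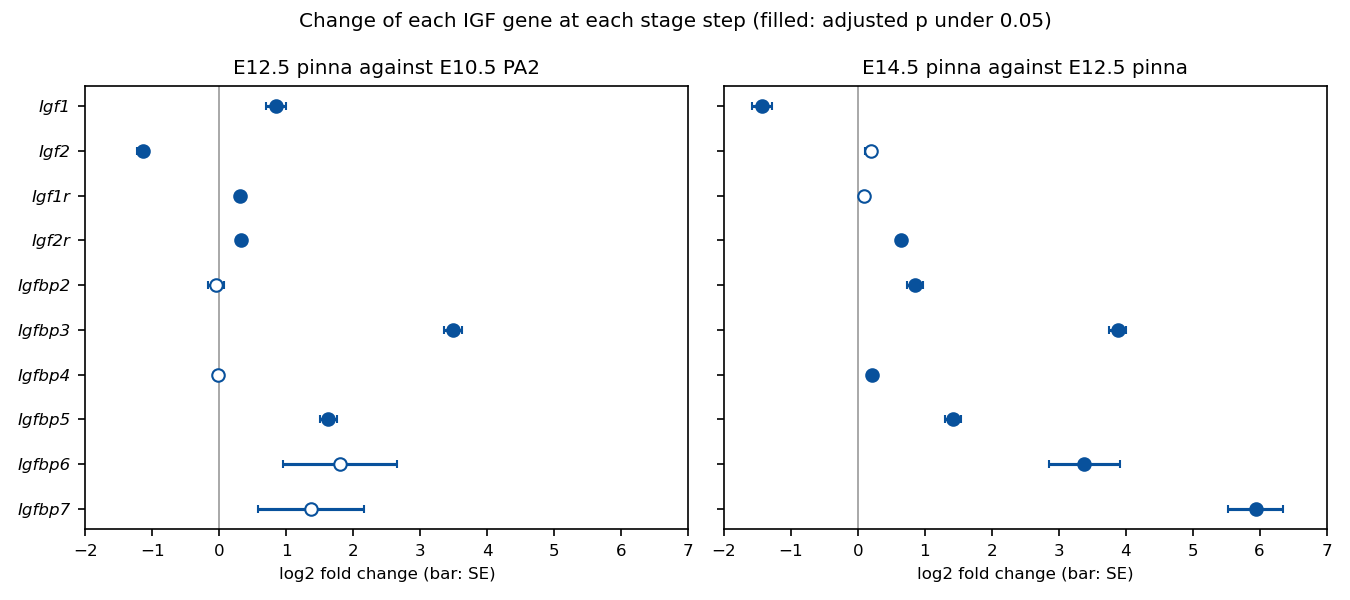
Log2 fold change of each IGF gene at each stage step of the sorted crest (bars show the SE, n = 3 libraries per stage, filled points have an adjusted p under 0.05). Igf1 changes by 0.84 and then by -1.44, Igf2 by -1.14 at the first step, and Igfbp3 by 3.49 and 3.88.

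Igfbp3, the main IGF carrier in adult serum, measured 17.1, 12.2 and 10.9 CPM in sorted E10.5 PA2, 155, 143 and 154 CPM at E12.5 and 2118, 2132 and 2386 CPM at E14.5. It rose at both steps, first by 3.49 (SE 0.14, adjusted p = 4.6e-09) and then by 3.88 (SE 0.13, adjusted p = 2.8e-09). The mean at E14.5 was 165 times that at E10.5. Igfbp5, a binding protein that also attaches to extracellular matrix, measured 215, 266 and 326 CPM at E10.5, 872, 765 and 855 CPM at E12.5 and 2211, 2104 and 2346 CPM at E14.5. It also rose at both steps (1.63, SE 0.13, adjusted p = 6.2e-07, then 1.42, SE 0.12, adjusted p = 2.1e-06), to 8.25 times its E10.5 mean.

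Igfbp7, a related secreted protein with low affinity for IGFs, was barely detected before E14.5, with 2, 4 and 1 counts in the E10.5 libraries and 5, 8 and 5 in the E12.5 libraries. At E14.5 it had 763, 345 and 672 counts, or 16.8, 7.25 and 14.7 CPM, the second library standing lowest. From summed counts the ratio of E14.5 to E12.5 was 57.0, with an exact 95% counting interval of 35.9 to 96.4, and that of E14.5 to E10.5 was 157 (76.0 to 391), intervals that cover counting error only. The second step was called (5.94, SE 0.41, adjusted p = 3.3e-07) and the first was not (1.36, SE 0.79, adjusted p = 0.147). Igfbp7 shares 85 exon bases with Polr2b on the opposite strand, and the kit is described as unstranded, so its lowest counts are uncertain.

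Igfbp6, which prefers IGF2 over IGF1, had 1, 3 and 2 counts at E10.5 and 7, 3 and 11 at E12.5, then 65, 93 and 196 counts at E14.5. Its E14.5 level was 1.43, 1.96 and 4.29 CPM, so it stayed rare, and the third library was the highest. The ratio of E14.5 to E12.5 from summed counts was 9.71 (exact 95% interval 6.26 to 15.9), and the step was called (3.38, SE 0.53, adjusted p = 0.000176). The first step was not (1.80, SE 0.85, adjusted p = 0.0794), with adjusted p from 0.0346 to 0.25 over the settings, 3 of 13 of which called it.

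Igfbp2 and Igfbp4 were not called at the first step. Igfbp2, abundant in many embryonic tissues, measured 69.7, 90.6 and 73.2 CPM at E10.5, 85.7, 71.4 and 69.2 CPM at E12.5 and 145, 119 and 145 CPM at E14.5. The earlier stages overlapped (-0.05, SE 0.12, adjusted p = 0.746), and at E14.5 all libraries lay above both (0.85, SE 0.12, adjusted p = 7.2e-05 against E12.5). Igfbp4, whose protein is a substrate of the protease PAPP-A, measured 670.1, 667 and 693 CPM at E10.5, 695, 642 and 664 CPM at E12.5 and 766, 741 and 806 CPM at E14.5. Its first step was not called (-0.02, SE 0.06, adjusted p = 0.757) and its small second step was (0.21, SE 0.06, adjusted p = 0.00617), a call that was lost when libraries were scaled by their totals alone (0.09, adjusted p = 0.194), as was its call over the whole interval (adjusted p = 0.0645).

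The make-up of the binding proteins changed with these steps. Summed per length, the 6 binding proteins amounted to 245 ± 12.3 CPM per kilobase at E10.5, 379 ± 20.8 at E12.5 and 1338 ± 82.3 at E14.5. Igfbp4 made up 62.7% ± 2.63 of that sum at E10.5, 39.9% ± 0.667 at E12.5 and 13.1% ± 0.255 at E14.5. Igfbp3 went from 1.77% ± 0.527 to 12.7% ± 0.289 and 52.8% ± 1.08 (SD, n = 3). Igfbp5 held 18.2% ± 2.93, 36.5% ± 0.906 and 27.6% ± 0.386, so its share was greatest at E12.5 although its level was greatest at E14.5. Igfbp2 went from 17.2% ± 2.22 at E10.5 to 5.51% ± 0.450 at E14.5. These shares depend on the length used. Per longest transcript, Igfbp2 held 20.8% ± 2.55 at E10.5, above Igfbp5 at 15.6% ± 2.60.

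**Figure D3:**
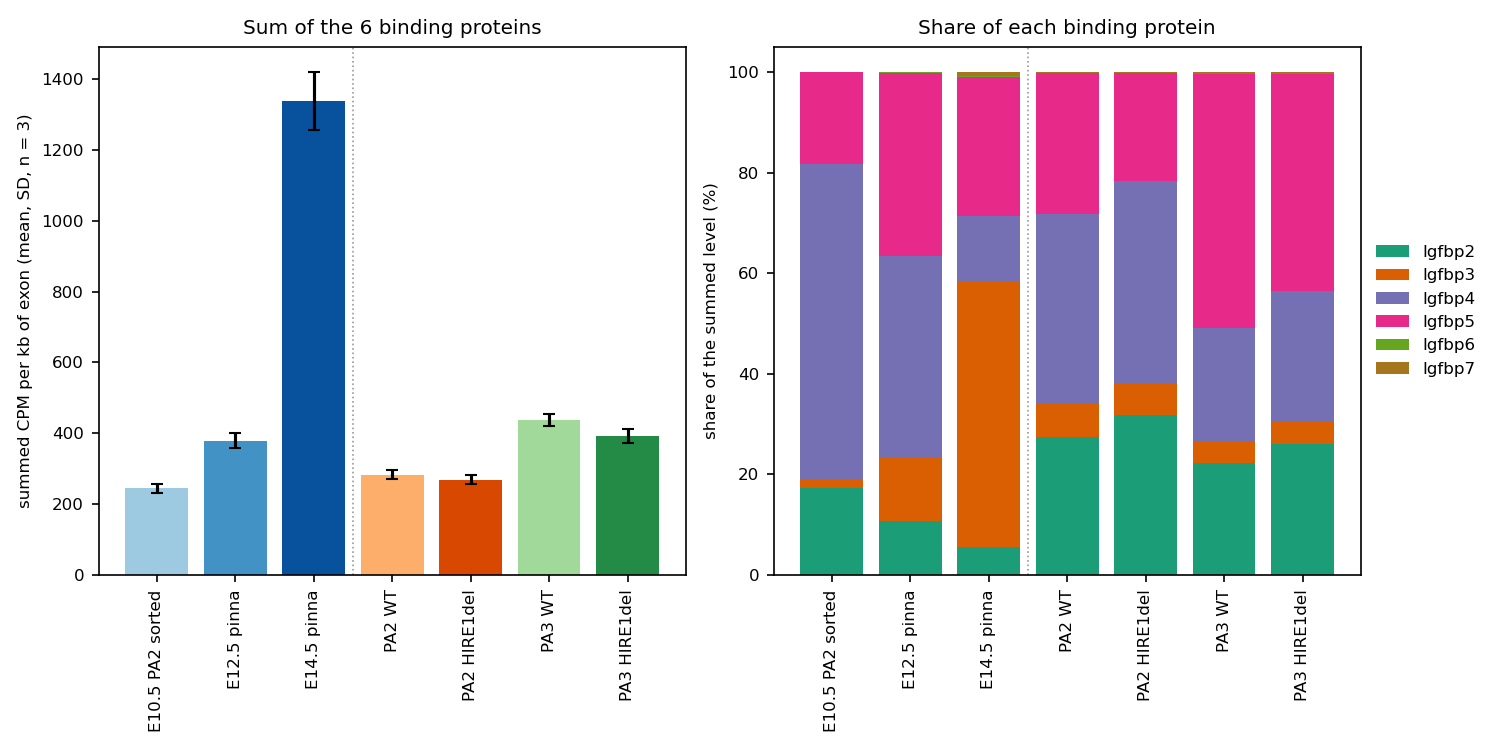
Left, summed level of the 6 IGF binding proteins per kilobase of exon (mean and SD, n = 3). Right, the mean share of each binding protein in that sum in percent, with the dotted line between the stage and the genotype series. Igfbp4 holds 62.7% of the sum in sorted E10.5 PA2 and Igfbp3 52.8% in the E14.5 pinna, while Igfbp5 holds 50.5% in PA3 WT.

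Of 49 other genes of the IGF pathway, 42 were tested in the stage series. At the first step 29 were called, 18 higher and 11 lower, and at the second step 34, 22 higher and 12 lower. For E14.5 against E10.5 34 were called, 24 higher and 10 lower. These shares, 69.0%, 81.0% and 81.0%, stand beside 68.8%, 65.7% and 82.0% of all genes, and the median log2 fold change was 0.10, 0.38 and 0.47 in turn. Ins1, Ins2 and Igfbp1 did not pass the filter in either series.

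Of 7 proteases that cleave binding proteins and stanniocalcins that inhibit such proteases, 6 were called at the first step, 4 of them higher, and 6 at the second, 5 of them higher, beside 68.8% and 65.7% of all genes (35.0% and 32.6% higher). Pappa2, a metalloproteinase that cuts IGFBP3 and IGFBP5, went from 2.67 ± 0.391 CPM at E10.5 through 23.8 ± 3.22 CPM at E12.5 to 129 ± 4.64 CPM at E14.5, and rose at both steps (log2 fold changes 3.16 and 2.43). Htra1, a secreted serine protease, went from 2.01 ± 0.375 CPM through 10.3 ± 1.37 CPM to 107 ± 17.9 CPM (2.36 and 3.37). Pappa, which encodes PAPP-A and is named after its values were seen, was not called at the first step (0.40) and was the member called lower at the second (-0.68). Adam12, which also cleaves binding proteins, rose at the first step (2.03) and was not called at the second (0.39). Htra3, a relative of Htra1, fell and then rose, from 1.08 ± 0.178 CPM through 0.234 ± 0.0893 CPM to 2.16 ± 1.04 CPM (-2.21 and 3.21). Of the inhibitors, Stc1 rose at both steps (2.09 and 1.08), and Stc2 went from 1.40 ± 0.218 CPM through 0.935 ± 0.169 CPM to 17.0 ± 0.863 CPM (-0.58 and 4.19), its small fall being lost in 4 of 14 settings.

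Below the receptor, 5 of 8 substrates and adaptors were called at the first step and 4 at the second, shares of 62.5% and 50% beside 68.8% and 65.7% of all genes. Irs4, an insulin receptor substrate, had 1, 5 and 9 counts at E10.5, reached 4.13 ± 1.10 CPM at E12.5 and stood at 1.11 ± 0.374 CPM at E14.5 (4.60 and -1.89). Grb10, an imprinted gene for an adaptor that restrains insulin and IGF receptor signalling, fell from 2634 ± 109 CPM to 1119 ± 27.2 CPM over the interval (-1.24), and its relative Grb14 fell at the first step (-2.67). Shc1, an adaptor to the MAP kinase arm, rose by 1.10 over the interval. In the PI3K, Akt and mTOR arm 8 of 16 genes were called at the first step and 14 at the second, 50% and 87.5% beside the same shares of all genes. Pik3r1, a regulatory subunit of PI3K, measured 64.5 ± 6.47 CPM at E10.5, 474 ± 55.5 CPM at E12.5 and 302 ± 13.8 CPM at E14.5 (2.88 and -0.65), and Pik3r3, another regulatory subunit, fell at the second step (-2.21). Over the interval the transcription factors Foxo1 (1.35) and Foxo3 (1.08), which Akt restrains, rose. Mtor was called at the second step (2.65, SE 0.50, adjusted p = 0.000735) on levels of only 0.672 ± 0.514 and 4.30 ± 1.59 CPM, while PA2 WT of the genotype series had 17.7 ± 2.62 CPM.

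The growth hormone axis, which drives Igf1 transcription in the liver after birth, had 4 genes tested. Of these, 3 were called higher at the first step, and 3 higher and 1 lower at the second. Beside them, 35.0% and 32.6% of all genes were higher, and 33.1% lower at the second. Over the interval 3 of 4 were called, all higher, beside 42.0% of all genes. Ghr, the growth hormone receptor, went from 18.1 ± 0.908 CPM through 53.3 ± 0.942 CPM to 152 ± 8.01 CPM and rose at both steps (1.56 and 1.52), so it rose at the second step while Igf1 fell. Stat5a and Stat5b, transcription factors downstream of it, rose over the interval by 2.99 and 1.28. The Igf2 mRNA-binding proteins, which bind Igf2 and other transcripts, fell at the first step in 3 of 3 cases, beside 33.7% of all genes. Igf2 fell at that step too. At the second step 2 of 3 were called lower, beside 33.1% of all genes, while Igf2 was not called (0.19). Igf2bp1 fell from 890.2 ± 65.4 CPM through 264 ± 13.2 CPM to 103 ± 8.48 CPM (-1.75 and -1.35), and Igf2bp3 changed by -1.68 over the interval.

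Neighbours of the imprinted genes were read alongside them. H19 measured 4213, 4098 and 4104 CPM in sorted E10.5 PA2, 2789, 2937 and 2576 CPM at E12.5 and 3884, 3349 and 4818 CPM at E14.5. It fell with Igf2 at the first step (-0.58) and rose at the second (0.54), so it ended near its start (-0.04 over the interval, not called), where Igf2 had ended lower (-0.95). The antisense Igf2os changed by -1.45 and -0.86, to 8.05 ± 0.657 CPM. Airn, the antisense noncoding RNA that silences paternal Igf2r, rose by 0.86 and 1.07, to 5.93 ± 0.507 CPM, in the same direction as Igf2r. Reads of Igf2 and Igf2os cannot be told apart without strand in the 98 exon bases they share. Igf2r and Airn share no exon bases, but the genes overlap on opposite strands. Without strand, unspliced reads of Igf2r in Airn exons cannot be told apart from Airn, so the rise of Airn is uncertain. Igf2 also shares 3596 exon bases on its own strand with Gm49394, another annotated gene, so its counts are uncertain to that extent.

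Markers of other cell types were measured beside the stage results. The summed level of 8 fibroblast and dermis genes was 3329 to 4144 CPM at E10.5, 10944 to 11869.8 CPM at E12.5 and 39795 to 55495 CPM at E14.5. Of these genes 8 of 8 were higher at the first step, and 7 were higher and 1 lower at the second. The 8 cycling-cell genes went the other way, from 4174 to 4657 CPM through 2184 to 2356 CPM to 982 to 1421 CPM, with 8 of 8 lower at each step. Immediate-early genes were higher in 7 of 8 cases at each step, from 249 to 301 CPM to 1813 to 2067 CPM. The neuronal sum was highest at E12.5 at 49.6 to 59.8 CPM, 127 to 176 CPM and 12.2 to 19.3 CPM in turn, with 2 of 5 genes higher and 3 of 5 lower at the first step. The cartilage sum went from 1662 to 1705 CPM through 667 to 710.2 CPM to 337 to 372 CPM. Of its 5 tested genes 4 were lower at the first step, and 2 were higher and 2 lower at the second. Melanocyte genes summed to 385 to 439.7 CPM, glial genes to 147 to 178 CPM and endothelial genes to 111 to 174 CPM at E14.5. The sums at E10.5 were 60.3 to 80.2, 26.2 to 33.0 and 7.16 to 9.87 CPM. Over that interval 6 of 7 melanocyte genes were higher and 1 lower, and 6 of 6 glial genes were higher. Only 2 of 6 endothelial genes were higher, and at the second step 1 was higher and 1 lower. The macrophage sum reached at most 3.66 CPM. The part of these movements in the IGF gene changes was not tested.

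Loss of HIRE1 was examined in PA2 and PA3 of E10.5 embryos. Hoxa2, a target of the deleted region, had 73.4, 77.2 and 84.2 CPM in PA2 WT and 5.75, 4.75 and 7.09 CPM in HIRE1del PA2, and 61.4 ± 4.72 CPM in PA3 WT against 23.8 ± 1.75 CPM in HIRE1del PA3 (log2 fold changes -3.74 and -1.36). Among the IGF genes, Igfbp5 fell in both arches and no other member was called. The same test was run over 14383 genes. In each arch 1 of 9 tested IGF genes was called, against 0.438% of all genes in PA2 (0.32% lower) and 0.216% in PA3 (0.16% lower), and the median log2 fold change of the 9 was -0.05 and -0.06, beside -0.01 and 0.00 over all genes. Igfbp6, with 0 to 11 counts per library, did not pass the filter on low counts in this series.

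Igfbp5 measured 474, 472 and 485 CPM in PA2 WT and 353, 326 and 355 CPM in HIRE1del PA2. The groups did not overlap, with the HIRE1del mean at 72.3% of WT (-0.47, SE 0.06, adjusted p = 0.000804). That call held in 15 of 15 settings, with adjusted p no higher than 0.00789. In PA3 Igfbp5 measured 1384, 1267 and 1321 CPM in WT and 1071, 953 and 1027 CPM in HIRE1del. These groups did not overlap either, and the HIRE1del mean was 76.8% of WT (-0.38, SE 0.05, adjusted p = 0.0123). In PA3 the call was lost without WT replicate 1 (-0.35, adjusted p = 0.0682), without HIRE1del replicate 2 (-0.34, adjusted p = 0.0739) and when only the 6 PA3 libraries entered the fit (-0.38, adjusted p = 0.126). The difference of the genotype effect between arches was not called for Igfbp5 (-0.09, SE 0.08, adjusted p = 0.908). By edgeR, DESeq2 and limma-voom 0 of 9 IGF genes were called for that difference, with 0 at an unadjusted p under 0.05 in edgeR, against 0.0487% of all genes. With PA2 and PA3 libraries of a genotype paired by number, 26 instead of 7 of all genes and again 0 IGF genes were called.

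**Figure D4:**
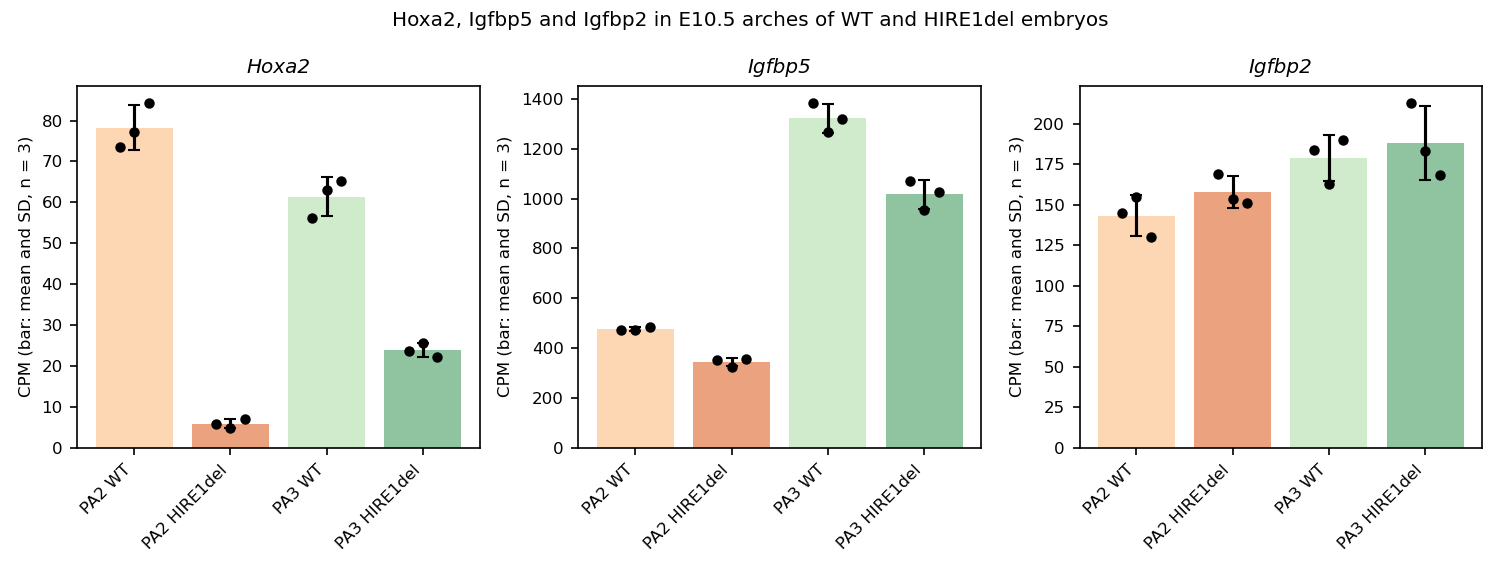
Hoxa2, Igfbp5 and Igfbp2 in CPM in the 4 groups of the genotype series (points are libraries, bars the mean, error bars the SD, n = 3). Igfbp5 averages 477 CPM in PA2 WT and 345 CPM in HIRE1del PA2, and 1324 and 1017 CPM in PA3, while Igfbp2 overlaps between genotypes in both arches.

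The other 8 tested members gave log2 fold changes between -0.12 and 0.17 in PA2 (adjusted p between 0.701 and 0.968) and between -0.15 and 0.10 in PA3 (adjusted p between 0.612 and 0.947). Igf2 averaged 668 ± 37.1 CPM in PA2 WT and 659 ± 67.1 CPM in HIRE1del PA2 (-0.02, SE 0.08), and Igf1 41.9 ± 0.982 and 40.5 ± 7.40 CPM (-0.05, SE 0.13). Igf1r had groups that did not overlap in PA2, at 215, 224 and 224 CPM in WT and 213, 207 and 201 CPM in HIRE1del, without passing the test (-0.09, SE 0.06, adjusted p = 0.701). Igfbp2, the neighbour of Igfbp5, was not called in PA2 (0.14, SE 0.09, adjusted p = 0.724) or in PA3 (0.07, SE 0.09, adjusted p = 0.835). Within the binding proteins, Igfbp5 made up 28.0% ± 1.56 of the summed level per length in PA2 WT and 21.3% ± 0.832 in HIRE1del PA2, and 50.5% ± 1.34 against 43.2% ± 1.46 in PA3 (SD, n = 3).

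Of the 46 pathway genes tested in this series, 1 was called in each arch and 0 by edgeR for the difference between arches, where 3 had an unadjusted p under 0.05. Pik3r1 measured 78.0, 76.6 and 79.3 CPM in PA2 WT and 58.1, 56.6 and 63.6 CPM in HIRE1del PA2 (-0.39, SE 0.06, adjusted p = 0.0143). Socs2, a feedback inhibitor of growth hormone signalling, measured 47.3, 47.7 and 48.8 CPM in PA3 WT and 35.9, 32.6 and 35.6 CPM in HIRE1del PA3 (-0.47, SE 0.08, adjusted p = 0.0277). Neither pair of groups overlapped, but the call of Pik3r1 was lost without any one of the 3 WT libraries or without HIRE1del replicate 1 or 2, and that of Socs2 without any one of its 6 libraries. The locus partners were not called in PA2 or PA3, with H19 at 0.07 and 0.02, Igf2os at 0.06 and 0.07 and Airn at -0.30 and -0.16. No gene of the marker lists was called by edgeR in either arch, yet some sums did not overlap between the genotypes in PA2. The neuronal sum was 82.0 to 84.0 CPM in WT and 61.1 to 65.0 CPM in HIRE1del, the glial sum 51.8 to 58.1 against 38.1 to 47.8 CPM, the melanocyte sum 45.8 to 47.4 against 49.6 to 53.0 CPM, and the cartilage sum 1119 to 1298 against 1397 to 1483 CPM. Their part in the fall of Igfbp5 was not tested.

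PA3 was compared with PA2 within each genotype to ask how the arches differ at one age. In WT, Igf2, Igfbp2, Igfbp5 and Igfbp7 were higher and Igf1 lower in PA3. Of the 9 tested IGF genes 5 were called, against 36.5% of all genes, 4 higher (background 19.1%) and 1 lower (17.4%). In HIRE1del 5 of 9 were called as well, against 33.4% of all genes, with Igf2, Igf2r, Igfbp2 and Igfbp5 higher (background 18.7%) and Igf1 lower (14.7%). The median of the 9 log2 fold changes was 0.18 in WT and 0.22 in HIRE1del, beside 0.00 and 0.00 over all genes. These comparisons use the same libraries as those between genotypes and are not independent of them. They were fitted without pairing. With PA2 and PA3 libraries of a genotype paired by number, 6098 instead of 5252 of all genes were called in WT and 5625 instead of 4806 in HIRE1del. Among the IGF genes that pairing changed only the call of Igf2r in WT, which it added.

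Igfbp5, by the libraries given above, differed most, at 477 CPM in PA2 and 1324 CPM in PA3 of WT (1.47, SE 0.06, adjusted p = 6.1e-09) and 345 and 1017 CPM in HIRE1del (1.56, SE 0.06, adjusted p = 2.4e-09). Igf2 measured 635, 708 and 660.2 CPM in PA2 WT and 942, 1041 and 1054 CPM in PA3 WT, all PA3 libraries above all PA2 libraries (0.60, SE 0.08, adjusted p = 5.6e-05). In HIRE1del it went from 659 ± 67.1 to 968 ± 55.8 CPM (0.56, SE 0.08, adjusted p = 0.000111). Igf1 went the other way, with 41.1, 41.7 and 43.0 CPM in PA2 WT and 25.4, 28.6 and 28.5 CPM in PA3 WT (-0.61, SE 0.13, adjusted p = 0.00251). In HIRE1del it measured 35.8, 36.7 and 49.1 CPM in PA2 and 24.4, 29.8 and 34.3 CPM in PA3 (-0.46, SE 0.13, adjusted p = 0.0142). The ratio of Igf2 to Igf1 per length was accordingly 23.0 ± 1.32 in PA2 WT and 53.1 ± 0.517 in PA3 WT.

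Igfbp2 measured 145, 155 and 130.3 CPM in PA2 WT and 184, 163 and 190.0 CPM in PA3 WT (0.32, SE 0.09, adjusted p = 0.0135), a call lost without PA2 WT replicate 3 (adjusted p = 0.0659). In HIRE1del its arches overlapped although it was called (0.25, SE 0.09, adjusted p = 0.0435). Igfbp7 had 13 to 32 counts in PA2 WT and 34 to 52 in PA3 WT, a ratio of 2.12 from summed counts (exact 95% interval 1.54 to 2.95). Its call (1.11, SE 0.36, adjusted p = 0.0281) was lost without PA2 WT replicate 1 (adjusted p = 0.0933), PA2 WT replicate 2 (0.098) or PA3 WT replicate 1 (0.128), and in HIRE1del it was not called (0.82, SE 0.36, adjusted p = 0.101). Igf2r was called in HIRE1del (0.22, SE 0.08, adjusted p = 0.0384) and not in WT (0.18, SE 0.08, adjusted p = 0.0822), where it passed once PA2 and PA3 libraries of one number were paired (0.17, adjusted p = 0.0484). The difference between genotypes was tested above and called for no member, so neither Igf2r nor Igfbp7 was shown to differ between them.

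Igf1r (0.06 in WT and 0.07 in HIRE1del), Igfbp3 (0.03 and 0.00) and Igfbp4 (-0.12 and -0.09) were not called between arches in either genotype. In HIRE1del the calls of Igf1, Igf2r and Igfbp2 depended on single libraries. Of the 5 members, 2 were called without PA2 replicate 3 or without PA3 replicate 1, 3 without replicate 2 of either arch and 4 without PA2 replicate 1. Igf1 was lost in the former pair of settings (adjusted p = 0.0677 and 0.0643), Igf2r was lost in 5 settings (adjusted p up to 0.12 without PA2 replicate 3) and Igfbp2 in 5 (up to 0.21 without PA3 replicate 1), while Igf2 and Igfbp5 were called in 16 of 16 and 16 of 16 settings. Igfbp5 held 28.0% of the summed binding protein level in PA2 WT and 50.5% in PA3 WT, and the sum itself was 284 ± 11.9 CPM per kilobase in PA2 and 436 ± 16.9 in PA3. Igfbp4 held 37.8% ± 0.911 and 22.6% ± 1.76, and Igfbp2 27.3% ± 1.28 and 22.2% ± 0.935 (SD, n = 3).

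Of the 46 pathway genes, 24 were called between arches in WT, 19 higher and 5 lower in PA3, and 22 in HIRE1del, 15 higher and 7 lower, with median log2 fold changes of 0.17 and 0.09. These shares, 52.2% and 47.8%, stand beside 36.5% and 33.4% of all genes. Igfbpl1, a gene related to the binding proteins, had 0.697, 0.386 and 0.646 CPM in PA2 WT and 10.4, 9.18 and 6.24 CPM in PA3 WT (3.89, SE 0.46, adjusted p = 3.2e-05). Irs4 averaged 1.12 ± 0.312 CPM in PA2 WT and 34.2 ± 5.00 CPM in PA3 WT (4.91, SE 0.27, adjusted p = 1.0e-07), and 0.990 ± 0.352 and 17.9 ± 5.30 CPM in HIRE1del (4.16). All 4 genes of the growth hormone axis were higher in PA3 of both genotypes, beside 19.1% (WT) and 18.7% (HIRE1del) of all genes. Socs2 differed by 1.88 (WT) and 1.47 (HIRE1del), Stat5a by 1.46 and 1.72, Stat5b by 0.63 and 0.57 and Ghr by 0.27 and 0.39. The 3 Igf2 mRNA-binding proteins were lower in PA3 of both genotypes, beside 17.4% (WT) and 14.7% (HIRE1del) of all genes, while Igf2 itself was higher. Igf2bp1 stood at -0.25 and -0.29, Igf2bp2 at -0.17 and -0.23 and Igf2bp3 at -0.31 and -0.29.

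All 3 locus partners were higher in PA3 of both genotypes, beside 19.1% (WT) and 18.7% (HIRE1del) of all genes. H19 measured 4005, 4472 and 4149 CPM in PA2 WT and 5972, 6419 and 6101 CPM in PA3 WT (0.55, SE 0.07, adjusted p = 6.3e-05), beside 0.60 for Igf2. Igf2os was higher by 0.29 and Airn by 0.69 in WT, and by 0.30 and 0.82 in HIRE1del. Among the proteases, Htra3 (0.78 in WT and 0.67 in HIRE1del) and Adam12 (0.61 and 0.84) were higher in PA3 of both genotypes and Htra1 (0.72) in WT. Igfals, which encodes the acid-labile subunit of the serum IGF complex, was called in WT (1.08, SE 0.34, adjusted p = 0.0222) at 0.795 ± 0.0213 CPM in PA2 and 1.70 ± 0.566 CPM in PA3. Of the substrates and adaptors, Irs2 (0.28 and 0.25) was higher and Sos1 (-0.24 and -0.30) lower in both genotypes, and Shc1 (0.17) was called in WT. Among these calls, that of Htra1 was lost without any one of its 6 libraries, and those of Ghr (7 of 16 settings), Sos1 (6 of 16), Shc1 (5 of 16) and Igfals (4 of 15) in WT were lost in some. In the PI3K arm Pik3r1 (0.51 and 0.66), Pik3cb (0.47 and 0.92) and Foxo4 (0.49 and 0.28) were higher and Pik3r3 (-0.35 and -0.22) lower in PA3 of both genotypes. Akt2 (0.18) was called in WT, and Tsc1 (-0.18) and Foxo1 (-0.32) in HIRE1del, with no called difference between the genotypes. The HIRE1del calls of Foxo1 (6 of 16 settings), Pik3r3 (6 of 16), Irs2 (4 of 16) and Tsc1 (4 of 16) were lost in some settings. With each library left out in turn, 16 to 20 pathway genes were called in WT in place of 24. In HIRE1del 17 to 22 were called in place of 22, so calls beyond those listed were also lost.

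**Figure D5:**
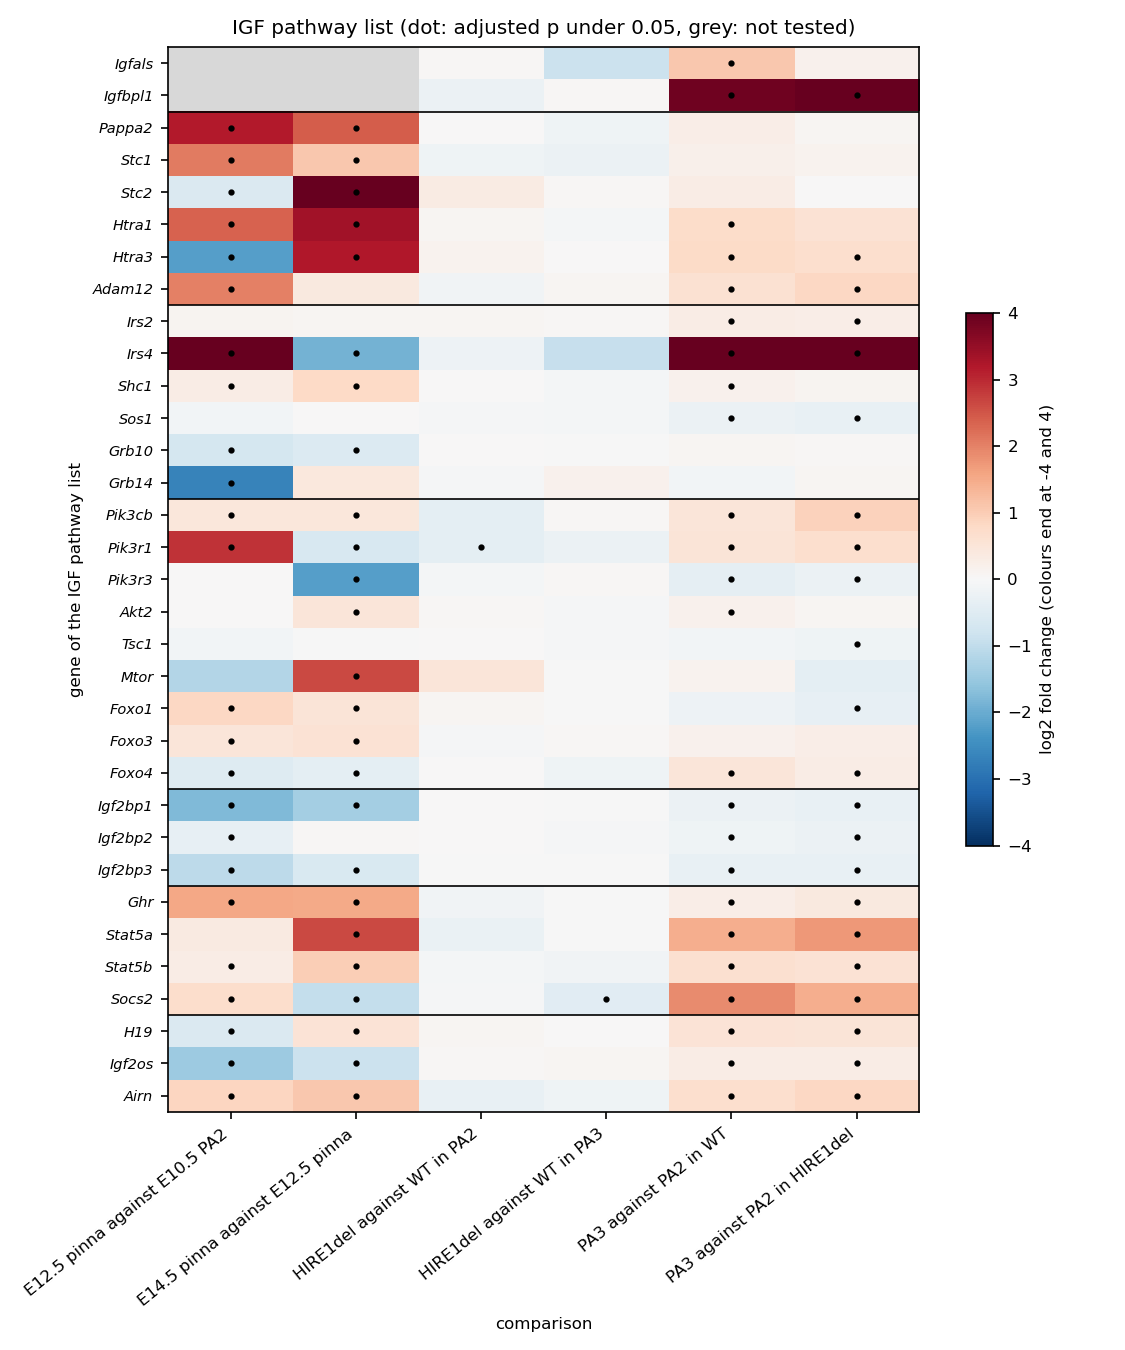
Log2 fold change of the tested pathway genes named in the text, except Pappa, in 6 comparisons (columns). Each line is a gene, grouped by role with black rules between groups. Colours end at -4 and 4, a dot marks an adjusted p under 0.05 and grey a gene not tested in that comparison. The genotype columns hold 1 dot each, Pik3r1 in PA2 and Socs2 in PA3, while the arch columns hold 24 and 22.

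The cell make-up of the arches differed too. The erythroid genes were higher in PA3 than in PA2 WT in 7 of 7 cases, with sums of 1581 to 2472 CPM in PA2 and 12818 to 25016 CPM in PA3, and the neuronal genes in 8 of 8 cases, with sums of 82.0 to 84.0 CPM and 193 to 269 CPM. In WT 5 of 8 epithelial genes were higher and 1 lower (sums of 258 to 288 and 544 to 698 CPM). Of 7 endothelial genes 5 were higher (sums of 274 to 291 and 337 to 359.8 CPM). Of 8 neural crest mesenchyme genes 5 were lower and 1 higher (sums of 1033 to 1153 and 676 to 838 CPM). Their part in the arch differences of the IGF genes was not tested.

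The sorted and the dissected PA2 of embryos without the deletion, both at E10.5, can only be set side by side. Igfbp3 averaged 13.4 ± 3.26 CPM in sorted crest and 59.0 ± 4.06 CPM in dissected PA2 WT, Igfbp5 269 ± 55.6 and 477 ± 7.04 CPM, and Igfbp2 77.8 ± 11.2 and 143 ± 12.4 CPM. Igfbp4 stood at 677 ± 14.1 and 473 ± 29.3 CPM, Igf1 at 60.7 ± 4.92 and 41.9 ± 0.982 CPM and Igf1r at 289.7 ± 16.3 and 221 ± 5.36 CPM. Igf2 had 758 ± 50.4 and 668 ± 37.1 CPM, Igf2r 563 ± 21.2 and 514 ± 11.0 CPM, and Igfbp7 0.0789 ± 0.0533 and 0.648 ± 0.293 CPM. Endothelial markers summed to 7.16 to 9.87 CPM in sorted crest and 274 to 291 CPM in dissected PA2, and read layout, normalization, sorting and cell make-up differed together between them.

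The genes whose pattern over the 21 libraries was closest to that of each ligand were sought among 9344 genes whose mean log2 CPM reached 3 in each table, by the root mean square difference of log2 CPM centred within each table. For Igf1 they were Tmem151b (0.19), Lzts1 (0.22) and Rimklb (0.23), and for Igf2 Ifrd2 (0.15), Usp25 (0.15) and Pim1 (0.16). Tmem151b had 72.6 ± 8.38 CPM in sorted E10.5 PA2, 127 ± 2.77 CPM in the E12.5 pinna and 47.7 ± 4.31 CPM in the E14.5 pinna, with its highest level at E12.5 as for Igf1. The libraries share groups, depth and preparation, and these distances are descriptions only.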

How the data were processed

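Bulk RNA-seq was measured in 9 sorted stage libraries and 12 dissected genotype libraries. The authors aligned reads to GRCm38 with QuasR and Rhisat2 and deposited raw counts per gene over UCSC knownGene exons, taken in one orientation although the labels name an unstranded kit. Replicates were not pooled. Counts were analysed per table with edgeR 4.0.16 in R 4.3.3: TMM scaling, a minimum of 1 CPM in 2 or more libraries, one mean per group, quasi-likelihood tests, Benjamini-Hochberg adjustment over all genes tested. A standard error is the log2 fold change divided by the square root of F. CPM per kilobase used the exon bases given in the tables, and 18 genes per table had no symbol. The exact intervals are conditional binomial intervals at 95% for counting error only. Tested on simulated data, 100% of 200 genes changed by 1 on the log2 scale were recovered for E12.5 against E10.5 (13046 genes) and 100% for HIRE1del against WT in PA2 (14079 genes), with 6.10% and 2.91% of calls false. Alternatives were DESeq2 1.42.0 (size factors, test), limma 3.58.1 (voom), library totals only, other filters, replicate blocks, the 6 libraries of a comparison alone, each library left out, and the longest transcript as length. Numbers paired PA2 with PA3 libraries of one genotype (correlation of deviations from group means 0.17 to 0.35 in 6 pairs). Replicates differed by more than sampling noise, so none was counted as a copy. Named were all 10 members, the pathway genes called (between stages, those whose log2 fold change reached 1 in either direction), H19, Igf2os, Airn, Hoxa2 and the 3 genes most like each ligand. Some pathway genes are counted but not reported here by name. The members, lists and tests were chosen with earlier results of these data known, so no count here is independent support for them. Promoter windows came from RefSeq, gene positions from GENCODE M21.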

Additional observations from a re-analysis of the deposited data

How the results depend on the processing

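No called IGF gene turned direction in any setting. Uncalled log2 fold changes near 0 did turn sign: Igfbp2 (E12.5 against E10.5) from -0.046 to 0.010 (library totals only), Igfbp4 (E12.5 against E10.5) from -0.020 to 0.035 (library totals only), 0.016 (1 CPM in every library), Igf1r (E14.5 against E12.5) from 0.095 to -0.029 (library totals only), Igf1r (the difference between arches) from -0.0062 to 0.0032 (library totals only), 0.0072 (1 CPM in every library), Igfbp3 (arches in HIRE1del) from 0.0013 to -0.0042 (DESeq2 size factors), -0.0016 (library totals only), -0.017 (no filter), -0.0042 (DESeq2 test), -0.0014 (limma-voom test), -0.00024 (replicate block within genotype), -0.00029 (6 libraries of the contrast alone). Leaving out 1 library also turned uncalled values, which ranged for E12.5 against E10.5 from -0.15 to 0.076 (Igfbp2), -0.050 to 0.0075 (Igfbp4), for HIRE1del in PA2 from -0.21 to 0.034 (Igf1), -0.10 to 0.046 (Igf2), -0.030 to 0.067 (Igfbp4), -0.026 to 0.63 (Igfbp7), for HIRE1del in PA3 from -0.023 to 0.22 (Igf1), -0.11 to 0.072 (Igf2r), -0.025 to 0.15 (Igfbp2), -0.0014 to 0.094 (Igfbp4), -0.38 to 0.19 (Igfbp7), for the difference between arches from -0.036 to 0.11 (Igf2), -0.058 to 0.040 (Igf1r), -0.14 to 0.041 (Igf2r), -0.0079 to 0.17 (Igfbp2), -0.047 to 0.10 (Igfbp3), -0.079 to 0.018 (Igfbp4), -0.014 to 0.74 (Igfbp7), for arches in WT from -0.044 to 0.089 (Igfbp3), for arches in HIRE1del from -0.059 to 0.071 (Igfbp3). Fitted alone, the 6 PA3 libraries gave 0 called IGF genes for HIRE1del against WT in PA3 in place of 1, while DESeq2's test, limma-voom and the replicate block each gave 2 called pathway genes there in place of 1. The cause was not tested, except that fitting 6 libraries leaves fewer samples for the spread. Leaving out each library in turn, the IGF genes called ranged from 6 to 7 (E12.5 against E10.5), 8 to 9 (E14.5 against E12.5), 10 to 10 (E14.5 against E10.5), 1 to 1 (HIRE1del, PA2), 0 to 1 (HIRE1del, PA3), 4 to 6 (arches, WT) and 2 to 5 (arches, HIRE1del). The pathway genes called ranged from 28 to 31, 33 to 37, 31 to 36, 0 to 1, 0 to 0, 16 to 20 and 17 to 22 in the same order. The called counts over all genes for HIRE1del moved from 63 in PA2 and 31 in PA3 to 162 and 94 with DESeq2 and to 105 and 54 with the replicate block, and for the difference between arches from 7 to 27 and 12.

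The numbers of WT and HIRE1del libraries, and of the stages, did not pair them (correlations of deviations from -0.13 to 0.19 and from -0.30 to 0.17), so the replicate block there is an alternative only. It called Igf2 for E14.5 against E12.5 (adjusted p = 0.0238) and Igfbp6 for E12.5 against E10.5 (0.0346), and changed no other call of an IGF gene in the stage or genotype comparisons. Per-kilobase levels moved by over 1 SD in 46 of 70 cases when the longest transcript replaced the exon union. Levels under about 0.1 CPM rest on 3 counts or fewer.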
